A study of Mus musculus with 22 samples.

Results

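The genes described here were 10 genes of muscle and of the contractile apparatus, Acta2, Tagln, Cnn1, Des, Acta1, Actc1, Tnnt2, Myh6, Myl7 and Myog, out of 34489 genes in the deposited table. They were chosen by name, each being the row of the gene count table with that symbol, and each symbol matched 1 row. The table came from bulk RNA-seq of mouse pluripotent stem cells, in a study of whether activators of AMP-activated protein kinase (AMPK) return primed mouse epiblast stem cells (mEpiSCs) to naive pluripotency. Of 22 libraries, 1 was from naive mouse embryonic stem cells (Rex1-GFP line, 129/Ola strain) and 2 were from primed mEpiSCs, the line Oct4GIP (129/Ola, with a GFP and puromycin-resistance transgene driven by the Oct4 promoter) and the line 129/MSM. From Oct4GIP cells, 8 cultures were taken after 8 days (d8) or 16 days (d16), with 1 library for each day in each of 4 media: AICAR, AICAR+LIF, 2iL and a basal medium with none of these. AICAR is an AMPK activator, LIF is leukemia inhibitory factor, and 2iL is LIF with a pair of kinase inhibitors that holds naive cells.

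The other 11 libraries were of reverted cells, grown in 2iL after d16. Of these, 4 were taken after 2 or 3 passages (d16+2p, d16+3p) from AICAR or AICAR+LIF, and 7 after 10 passages (d16+10p), of which 5 were of Oct4GIP (AICAR, AICAR+LIF, the AMPK activator A769662 without or with LIF, and metformin with LIF) and 2 of 129/MSM (AICAR, AICAR+LIF). Per the study's methods, primed Oct4GIP cells were maintained on fibronectin and primed 129/MSM cells on feeder layers of mouse embryonic fibroblasts, and the cultures were started on such feeders. Naive and reverted cells were kept on gelatin. The primed libraries thus differed in feeders as well as in line, and feeder RNA could be present in primed 129/MSM and in the cultures. No condition had a second library of the same line, and p-values below measured the spread between these libraries. Library totals were 438771 reads for AICAR+LIF d8 and 956357 reads for AICAR d8, between 1689495 and 3404489 reads for 19 others and 5290163 reads for basal d16. Levels are given as CPM, the reads of a gene per 1000000 reads, on library totals scaled by the trimmed mean of M-values. In AICAR+LIF d8 a gene with 0 reads could still have stood at up to 5.93 CPM, the level of 3 reads, against 0.565 CPM in basal d16. Values from AICAR d8 and AICAR+LIF d8 therefore had the widest counting error.

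The labels of the naive, primed and reverted libraries were met by their markers, and the d8 and d16 cultures were low in most of the listed pluripotency genes. Pou5f1, the core pluripotency factor also known as Oct4, had 768 CPM in naive cells, 818 and 461 CPM in the primed lines and 717 to 1188 CPM in reverted cells, but 0.754 to 35.6 CPM in the 8 cultures. The naive marker Zfp42 had at least 468 reads in naive and each reverted library, 1 read in each primed library and at most 2 in a culture. The primed marker Fgf5 had 91 and 1008 reads in the primed lines and at most 8 elsewhere. Of 8 pluripotency markers 6 were called lower in the cultures than in reverted cells and 1, Otx2, higher, at 2.68 ± 0.59. Against primed cells 5 were lower and 1, Sox2, was higher, at 1.65 ± 0.33. Of 6 neural markers, all were called higher in the cultures than in reverted cells, and 5 higher than in primed cells. Over all genes 76.2% and 37.5% were called in these comparisons, in either direction. In bulk RNA fewer cells of a type and less RNA per cell cannot be told apart.

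Smooth, cardiac and skeletal muscle share a way of contracting, in which myosin pulls on actin filaments, but each uses its own actin and myosin genes. Smooth muscle builds its filaments from alpha smooth muscle actin with the actin-binding proteins transgelin and calponin, while heart and skeletal muscle build sarcomeres from sarcomeric actins, myosin heavy and light chains and the troponin complex. Activated fibroblasts also make the smooth muscle actin and transgelin, so these genes mark a contractile state as well as a lineage. Serum response factor, SRF, drives many of these genes from a sequence named the CArG box, and the skeletal lineage is set by the myogenic factors Myf5, Myod1 and Myog.

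The promoter sequences were searched for the CArG box, the site through which SRF acts on many muscle genes. The RefSeq promoter table (GRCm38.p6, 250 bases before to 50 bases after each start) matched 9 of the 10 genes, with 10 entries, since Tnnt2 had a pair of them and Tagln had none. An exact CArG box, whose pattern matches either strand at the same site, was found in 3 of these genes, and in 1.63% of all 32851 promoter entries. The boxes are shown in capitals with up to 35 bases on either side. The stretches shown are at chr2:114052878-114052957 (minus strand) for Actc1, chr8:123894804-123894883 (minus strand) for Acta1 and chr11:5898799-5898878 (minus strand) for Myl7. The first bases of the boxes lay 47, 73 and 61 bases before the RefSeq start. For Actc1 the stretch lies inside the gene region given below, which comes from another annotation with a start farther upstream.
Actc1: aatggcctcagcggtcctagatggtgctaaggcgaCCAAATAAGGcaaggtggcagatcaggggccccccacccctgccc
Acta1: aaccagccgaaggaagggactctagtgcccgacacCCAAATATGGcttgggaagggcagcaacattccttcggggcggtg
Myl7: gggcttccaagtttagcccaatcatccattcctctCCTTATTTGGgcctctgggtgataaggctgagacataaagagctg
No exact box was in these windows of Des, Acta2, Cnn1, Tnnt2, Myh6 or Myog. Of the genes with a box, Actc1 was called between media with and without AICAR and Acta1 was not, and Myl7 had at most 1 read in any of the 8 cultures.

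Acta2 and Tagln were the highest of the 10 genes in the d8 and d16 cultures. Acta2, alpha smooth muscle actin (chr19:34241090-34255590, minus strand, GRCm38), had 176 CPM in basal d8, 139 in 2iL d8, 505 in AICAR d8 and 874 in AICAR+LIF d8. At d16 it had 156 CPM in basal, 476 in 2iL, 243 in AICAR and 880 in AICAR+LIF. All 8 cultures stood above both primed libraries, which were at 3.68 CPM in Oct4GIP and 95.1 CPM in 129/MSM, and above the 11 reverted libraries, of which the highest had 20.5 CPM, and naive cells had no read of it. Tagln, which encodes the actin-binding protein transgelin (chr9:45929619-45936058, minus strand), followed the same order at a lower level. It stood at 47.1, 32.3, 140 and 214 CPM in basal, 2iL, AICAR and AICAR+LIF at d8, and at 39.0, 113, 64.6 and 277 CPM in those media at d16. The ratio of Tagln to Acta2 reads lay between 0.233 and 0.314 in the 8 cultures, so these genes kept a narrow proportion while Acta2 ranged from 139 to 880 CPM. Cnn1, calponin 1 (chr9:22099216-22109630, plus strand), had 2.17, 7.05, 25.6 and 51.4 CPM in those media at d8. At d16 it had 5.09, 12.8, 12.8 and 62.5 CPM, and AICAR+LIF was the highest medium on both days for all 3 smooth muscle genes.

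Per kilobase of transcript, Acta2 was the highest of the 10 genes in the 4 cultures with AICAR, at a mean of 359 CPM per kb (range 140 to 505). On the same scale Tagln had 131 (48.6 to 208), Acta1 38.5 (12.7 to 86.6), Actc1 35.7 (8.29 to 83.0) and Cnn1 22.9 (7.70 to 37.6). These ranges of Acta1, Actc1 and Cnn1 overlapped, so no order among the 3 can be given. In the 4 cultures without AICAR Acta2 and Tagln again led, at means of 136 (79.8 to 273) and 43.7 (24.4 to 85.4) CPM per kb, and every other member had a mean of at most 4.08.

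**Figure D1:**
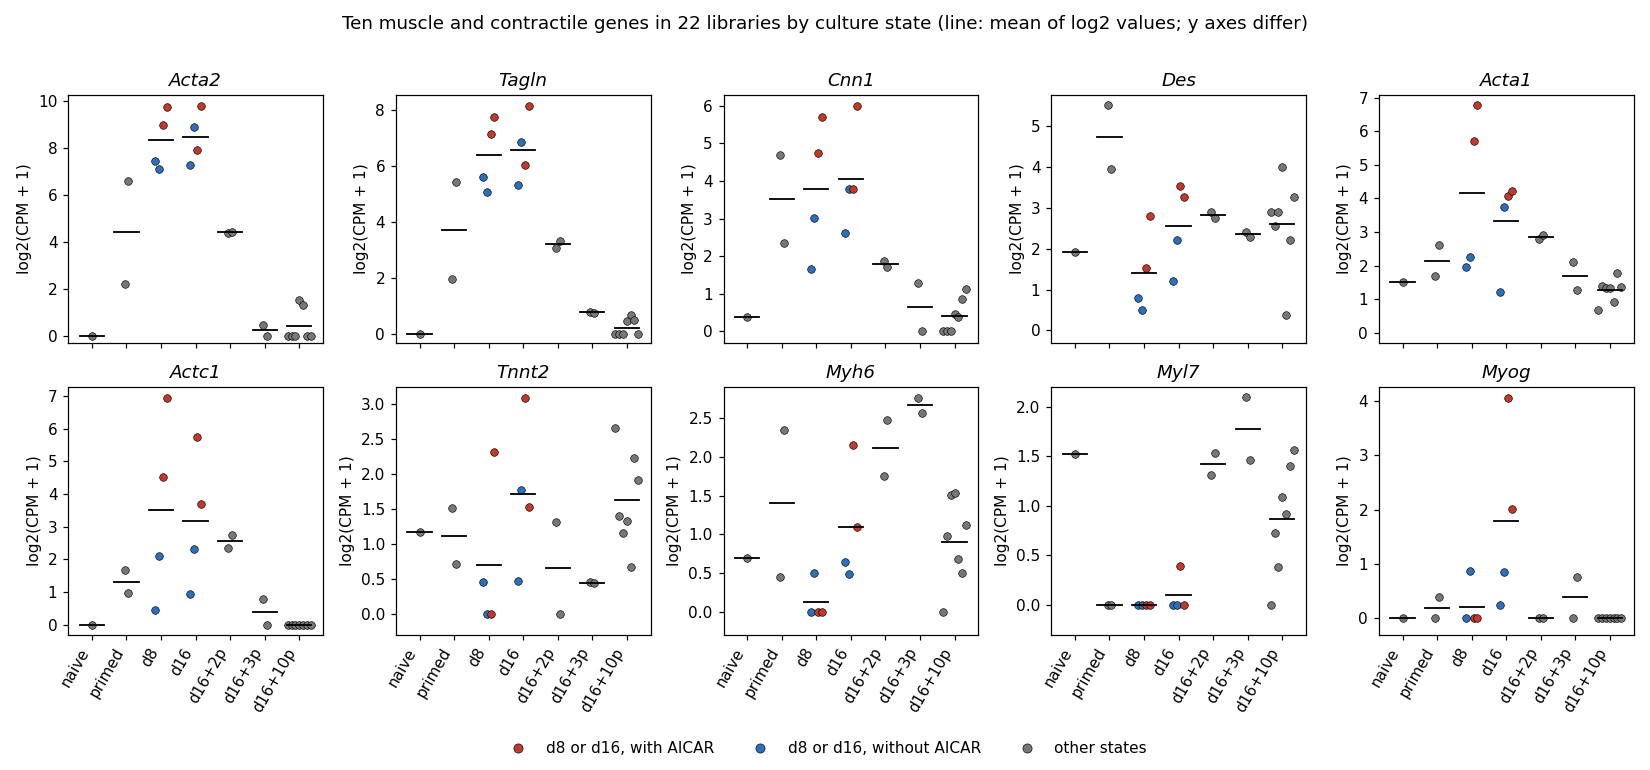
Level of each of the 10 genes, as log2(CPM + 1), in each of the 22 libraries by culture state, with the mean of the log2 values as a line, and with d8 and d16 cultures coloured by AICAR. Acta2 and Tagln were high at d8 and d16 and near 0 after 3 and 10 passages, whereas Des was highest in primed Oct4GIP and Myl7 and Myh6 were low throughout.

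The comparison of AICAR with no AICAR over d8 and d16 asked whether the AMPK activator changed these genes, with the day as a term. Cardiac alpha-actin Actc1, calponin Cnn1 and desmin Des were called higher with AICAR, and 4 others were not called although each was fitted above 0. Of the 10 genes, 7 had enough reads to be tested, and 3 of the 7 passed an adjusted p of 0.05 (edgeR's quasi-likelihood test, Benjamini-Hochberg adjustment over 15473 genes), all higher, where 8.9% of all tested genes were called. The median log2 difference of the 7 was 2.18, beside -0.03 over all tested genes. Des, Actc1 and Tnnt2 passed the filter on low counts only through cultures with AICAR, the group where they were high. The count of 3 and this median carry that selection and are given as a description. Myl7, Myh6 and Myog had too few reads and were not tested.

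Actc1, the actin of heart muscle and of developing skeletal muscle (chr2:114047282-114053548, minus strand), separated the media most. It had 0.362 CPM in basal d8, 3.32 in 2iL d8, 0.942 in basal d16 and 4.01 in 2iL d16, against 21.8 in AICAR d8, 121 in AICAR+LIF d8, 53.1 in AICAR d16 and 12.0 in AICAR+LIF d16. Every culture with AICAR was above every culture without it. The fitted log2 difference was 4.55 ± 0.87 (SE, 4 against 4 libraries, edgeR adjusted p = 0.0210). Acta1, the skeletal muscle alpha-actin (chr8:123891769-123894751, minus strand), also did not overlap between the groups, at 15.9 to 109 CPM with AICAR and 1.32 to 12.4 CPM without, yet its difference of 2.93 ± 0.84 did not pass (edgeR adjusted p = 0.0624). Groups without overlap, higher with AICAR, were found for 2 of the 9 members that had at least 10 reads over the 8 cultures, and for 3.66% of all genes with that many.

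Cnn1 was higher with AICAR by 2.54 ± 0.63 on the log2 scale (edgeR adjusted p = 0.0416), although 2iL d16 and AICAR d16 both stood at 12.8 CPM. Des encodes desmin, the intermediate filament that ties myofibrils together (chr1:75360329-75368579, plus strand). It was higher by 2.18 ± 0.53 (edgeR adjusted p = 0.0400), on few reads: 2 in basal d8, 1 in 2iL d8, 2 in AICAR d8 and 3 in AICAR+LIF d8. At d16 it had 7 reads in basal, 9 in 2iL, 34 in AICAR and 23 in AICAR+LIF, so most of the reads behind this contrast came from d16. For Acta2 the fitted difference was 1.51 ± 0.54 (edgeR adjusted p = 0.108) and for Tagln 1.68 ± 0.53 (edgeR adjusted p = 0.0798). Both overlapped between the groups, because 2iL d16 exceeded AICAR d16. Of 14 fibroblast markers 2 were called higher with AICAR, where 8.9% of all genes were called in either direction. These were Postn, a matrix protein of activated fibroblasts, at 1.80 ± 0.27 and the receptor gene Pdgfrb at 0.84 ± 0.20 (edgeR adjusted p = 0.0117 and 0.0387). The median over the 14 was -0.23, and the part of fibroblast markers in the members' differences was not tested. Tnnt2, cardiac troponin T, had a fitted log2 difference of 2.07 (edgeR adjusted p = 0.208).

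These calls depended on single libraries and on the test. Leaving out basal d8, 2iL d8 or AICAR+LIF d8 left 0 members called, leaving out AICAR d8, basal d16 or AICAR+LIF d16 left 1, leaving out AICAR d16 left 3, and leaving out 2iL d16 gave 6. DESeq2 called 6 of the 7 (14.4% of all genes), edgeR without a filter on low counts called 7 of 10 (10.6%), d8 alone gave 5 of 5 (21.6%) and d16 alone gave 0 of 6 (0%). The fitted differences of these 7 genes stayed above 0 wherever they could be fitted.

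**Figure D2:**
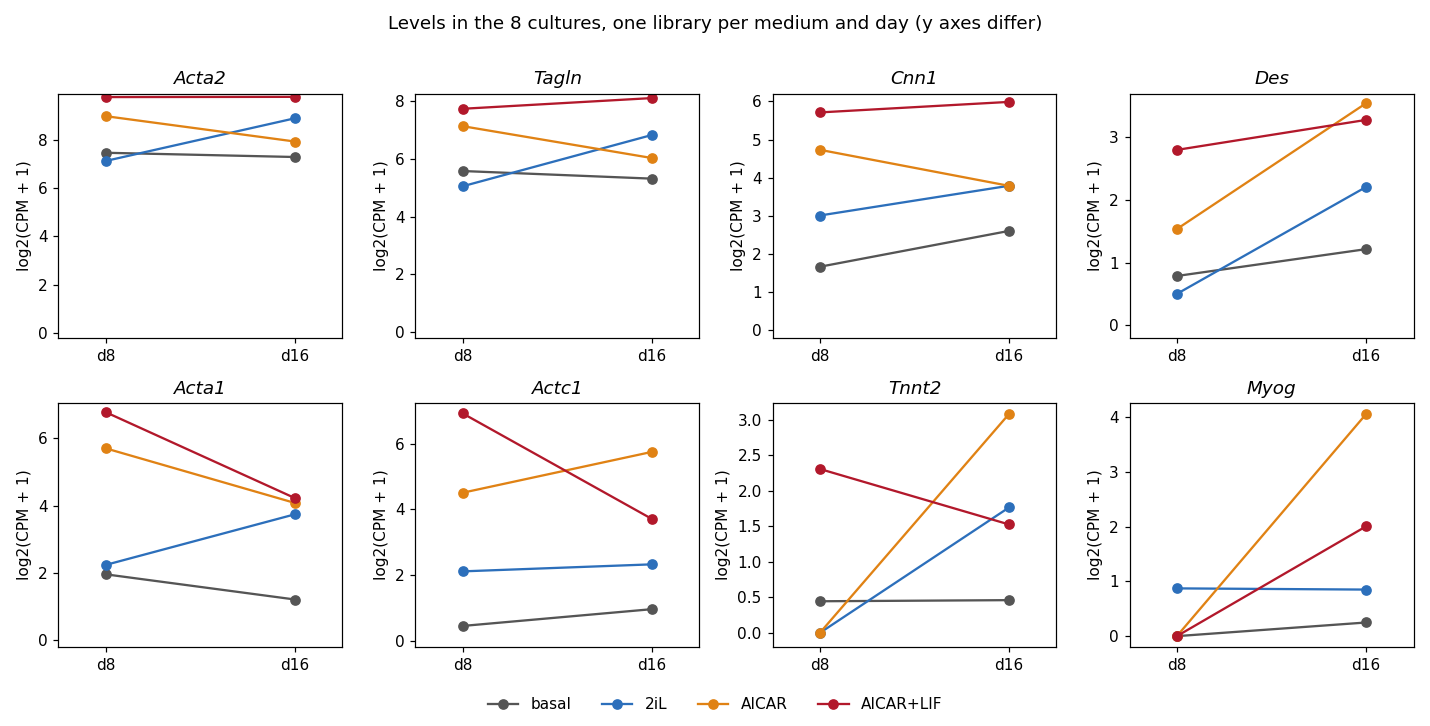
Level of 8 of the genes, as log2(CPM + 1), at d8 and d16 in basal medium, 2iL, AICAR and AICAR+LIF, with 1 library a point and a line joining the days of a medium. Actc1 and Acta1 were higher in both media with AICAR than in the other media on each day, and for Acta2 and Tagln 2iL stood above AICAR at d16.

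No member was called between d16 and d8 by edgeR or DESeq2, where edgeR called 30.2% of all genes. The lowest adjusted p was that of Des, at 1.65 ± 0.56 on the log2 scale (edgeR adjusted p = 0.0518), which passed when AICAR+LIF d8 or basal d16 was left out (edgeR adjusted p = 0.0407 and 0.0389). The median over the 7 tested members was 0.40, beside 0.00 over all genes. Acta1 was lower at d16 than at d8 in both media with AICAR, at 15.9 and 17.7 CPM against 51.1 and 109, and higher in 2iL, at 12.4 against 3.73. In basal medium it was lower at d16 too, at 1.32 CPM against 2.90. The test of whether the AICAR effect differed between the days called 0 of 7 members by edgeR or DESeq2, and 0.136% of all genes by edgeR. For Acta1 that difference was -3.26 ± 1.22 (edgeR adjusted p = 0.280), so the smaller gap at d16 was not distinguishable from the spread, but without basal d16 it passed, at -4.24 (edgeR adjusted p = 0.0179).

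Within the media, 0 of 7 members were called between 2iL and basal, where 0.0129% of all genes passed edgeR's test, and 0 of 7 between AICAR+LIF and AICAR, where 0% of all genes did. At an unadjusted p under 0.05 those comparisons had 1049 and 355 genes, and DESeq2 called 96 and 1 genes, with no member among them. The smooth muscle genes were nonetheless higher with LIF added to AICAR on both days. The fitted log2 differences were 1.24 ± 0.61 for Acta2, 1.27 ± 0.63 for Tagln and 1.64 ± 0.54 for Cnn1, each with an edgeR adjusted p of 1. When the 4 libraries with AICAR were fitted alone, all 3 passed, with edgeR adjusted p of 4.61e-04, 0.00354 and 0.00403, on 1 residual degree of freedom, in a fit that called 2.41% of all genes where the fit of 8 libraries called 0.

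**Figure D3:**
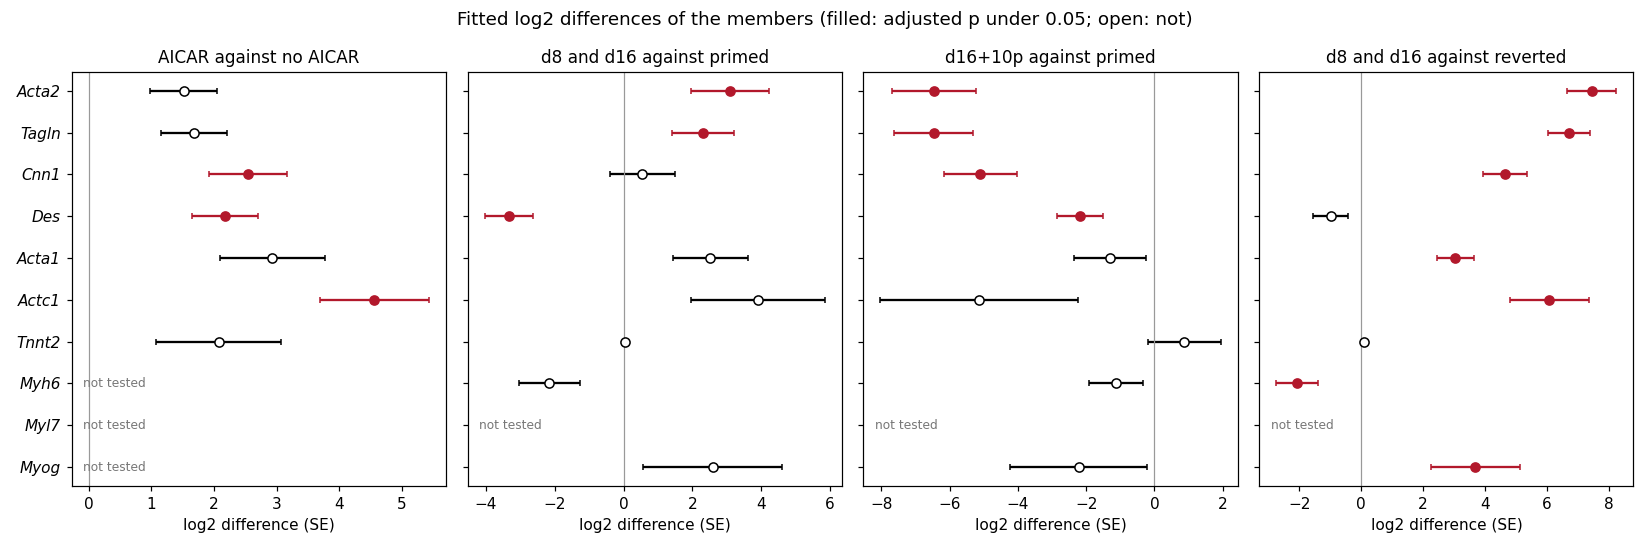
Fitted log2 differences of the 10 genes in 4 comparisons, with the standard error as a bar, filled where the edgeR adjusted p was under 0.05 (the SE of Tnnt2 is left out in the panels where its difference is near 0). With AICAR 3 genes were called higher; the d8 and d16 cultures differed from reverted cells by 7.46 for Acta2 and 6.70 for Tagln.

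Against primed mEpiSCs, Acta2 and Tagln were called higher and Des lower in the d8 and d16 cultures. This comparison and the next share the 8 cultures. Of 9 members tested 3 were called, a share near the 37.5% of 18739 genes. Acta2 was higher by 3.10 ± 1.13 (edgeR adjusted p = 0.0359) and Tagln by 2.32 ± 0.90 (edgeR adjusted p = 0.0483), and Des was lower, at -3.34 ± 0.71 (edgeR adjusted p = 0.00108). Tagln levels overlapped, at 32.3 to 277 CPM in the cultures against 2.94 and 41.7 CPM in the primed lines. Des had 44.5 CPM in primed Oct4GIP and 14.5 CPM in primed 129/MSM, against 0.415 to 10.6 CPM in the 8 cultures, with no overlap. Primed Oct4GIP also had 24.6 CPM of Cnn1, above the 12.8 CPM of 2iL d16 and AICAR d16, so Des and Cnn1 were present before the change of medium while Acta2 and Tagln were low in that line. Without primed Oct4GIP none of these 3 genes passed (edgeR adjusted p = 0.0727 for Des, 0.239 for Acta2 and 0.337 for Tagln). Acta2 and Tagln did not pass without both low-total d8 libraries (edgeR adjusted p = 0.0725 and 0.130) or by DESeq2 (adjusted p = 0.116 and 0.0701).

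Against the reverted cells Acta2, Tagln, Actc1, Cnn1 and Acta1 were called higher in the cultures. Groups without overlap, higher in the cultures, were found for Acta2 and Tagln alone, 2 of the 10 members. Of all genes with at least 10 reads over these libraries 12.2% had such groups. The levels of Actc1, Cnn1 and Acta1 overlapped. Of 9 members 7 were called, a share near the 76.2% of all genes. One of the 7 was Myog, which passed the filter on low counts only through AICAR d16, the library where it was high, and nothing is read from its call. Acta2 was higher in the cultures by 7.46 ± 0.79 (edgeR adjusted p = 3.56e-08) and Tagln by 6.70 ± 0.68 (edgeR adjusted p = 1.68e-08). Actc1 was higher by 6.09 ± 1.28, Cnn1 by 4.65 ± 0.71 and Acta1 by 3.05 ± 0.60 (edgeR adjusted p = 5.05e-04, 5.24e-06 and 1.07e-04). Myh6, the alpha heavy chain of cardiac myosin, was lower in the cultures, at -2.06 ± 0.67 (edgeR adjusted p = 0.00898). Its mean was 0.743 CPM in the cultures, 4.41 CPM in the d16+2p and d16+3p libraries and 0.984 CPM in d16+10p. The difference thus lay mainly with the early passages. Des did not differ by the test, at 4.15 ± 3.86 CPM (SD, n = 8) in the cultures and 5.99 ± 3.70 CPM (SD, n = 11) in reverted cells. Actc1 had 0 reads in all 7 d16+10p libraries. The mean of the 8 cultures was at least 15.3-fold higher than the highest level that 3 reads would allow in d16+10p. That bound was 29.4-fold for the 4 cultures with AICAR and 1.22-fold for the 4 without. Without AICAR, Actc1 at 0.362 to 4.01 CPM was below both d16+2p libraries, at 4.14 and 5.70 CPM.

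Acta2 and Tagln were still detected after 2 passages in 2iL and nearly absent after 3. Acta2 had 68 reads in AICAR d16+2p and 54 in AICAR+LIF d16+2p, and 1 and 0 reads in the d16+3p libraries of these media. Tagln went from 25 and 24 reads to 2 and 2, Actc1 from 14 and 15 reads to 2 and 0, and Cnn1 from 9 and 6 reads to 4 and 0. Of the 8 members with at least 10 reads over these 4 libraries, 6 were higher in both d16+2p libraries than in both d16+3p libraries, where 25.2% of all genes were, 1, Myh6, was lower in both, and no test was made between these passages. Fibroblast markers were also lower at d16+3p: the summed level of 14 of them was 108 and 115 CPM at d16+2p and 25.4 and 21.1 CPM at d16+3p, and Col1a1, collagen I alpha 1, went from 122 and 118 reads to 3 and 4. The part of remaining feeder or other fibroblast RNA in these values was not tested.

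After 10 passages 4 of 9 members were called lower than in primed cells, where 36.6% of all genes were called in either direction. Tagln was at -6.47 ± 1.16 and Acta2 at -6.45 ± 1.23 (edgeR adjusted p = 1.81e-04 and 3.29e-04), Cnn1 at -5.10 ± 1.07 and Des at -2.18 ± 0.67 (edgeR adjusted p = 8.17e-04 and 0.0146). Acta2 had 0 reads in 5 of the 7 libraries and at most 5 reads in the others. The primed lines carried these calls differently: without 129/MSM Acta2 and Tagln no longer passed (edgeR adjusted p = 0.377 and 0.178), and without Oct4GIP Cnn1 and Des no longer passed (0.105 and 0.391). Among the d16+10p libraries Des ranged from 0.298 CPM with metformin and LIF to 15.1 CPM with A769662 and LIF, both from Oct4GIP, and each treatment had a single library in a line.

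**Figure D4:**
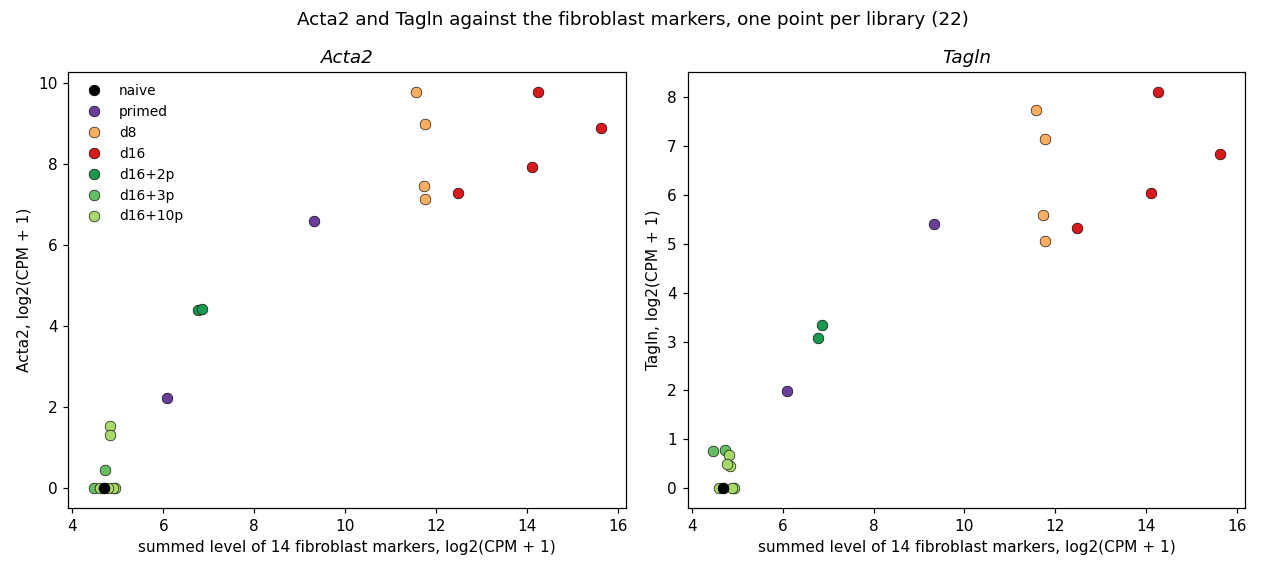
Level of Acta2 and of Tagln, as log2(CPM + 1), against the summed level of 14 fibroblast markers on the same scale, with 1 point for each of the 22 libraries coloured by state. Libraries at d8 have a fibroblast sum of 3030 to 3483 CPM and Acta2 of 139 to 874 CPM.

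Fibroblast markers moved with Acta2 and Tagln across the states. All 14 were called higher in the d8 and d16 cultures than in reverted cells and 11 of 14 higher than in primed cells. Over all genes 76.2% and 37.5% were called in these comparisons, in either direction. The sum over the 14 was 3030 to 3483 CPM at d8 and 5708 to 50534 CPM at d16. It was 66.9 and 638 CPM in primed Oct4GIP and 129/MSM, and 21.1 to 115 CPM in reverted cells. Primed 129/MSM, the line kept on feeders and the primed library with the higher Acta2, also had 450 reads of Col1a1 against 19 in Oct4GIP. Within the cultures the measures parted. At d8 the fibroblast sum was 3386 CPM in basal and 3030 CPM in AICAR+LIF, while Acta2 was 176 and 874 CPM. At d16 it was 50534 CPM in 2iL and 19543 CPM in AICAR+LIF, while Acta2 was 476 and 880 CPM. Between d16 and d8, 11 of the 14 markers were called higher and no member was, where 30.2% of all genes were called in either direction. Col1a1 rose by 2.74 ± 0.52 and Col3a1, collagen III alpha 1, by 4.35 ± 0.78 (edgeR adjusted p = 0.00711 and 0.00614). The part of feeder fibroblasts in the levels of Acta2 and Tagln was not tested.

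The listed smooth muscle partners were higher in the cultures than in reverted cells, and few of them were called with AICAR. Of 12 listed partners all 12 were called higher in the cultures than in reverted cells, 6 of 12 higher than in primed cells, and 2 of 12 higher with AICAR, beside 76.2%, 37.5% and 8.9% of all genes called in either direction. The median log2 difference of the 12 with AICAR was 0.92, with Mylk at -0.04 and Lmod1, a leiomodin, at -0.02 among those not called. Those higher with AICAR were Tpm1, a tropomyosin that winds along the actin filament, at 2.26 ± 0.46, and Cald1, caldesmon, at 1.12 ± 0.25 (edgeR adjusted p = 0.0250 and 0.0316). Actg2, the gamma actin of visceral smooth muscle, had 370 reads in AICAR+LIF d16 against 28, 39 and 54 in basal, 2iL and AICAR at d16, in the same library that had the highest Acta2, Tagln and Cnn1 of its day. Mylk, the kinase that starts smooth muscle contraction, stood highest in another library, with 715 reads in 2iL d16 against 114 to 322 in the other d16 cultures. Between d16 and d8, 4 of the 12 partners were called higher, where 30.2% of all genes were called in either direction. Among them were Mylk at 3.06 ± 0.78 and Actg2 at 2.73 ± 0.78 (edgeR adjusted p = 0.0208 and 0.0310), and the median over the 12 was 0.49. Against primed cells the d16+10p cells had 7 of the 12 lower, with a median of -2.29, where 36.6% of all genes were called in either direction. Myh11, the smooth muscle myosin that marks the differentiated cell, had at most 14 reads in any library.

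Of 8 tested regulators of muscle genes, 1 was called with AICAR, where 8.9% of all genes were. It was the LIM protein Fhl2, at 1.89 ± 0.46 (edgeR adjusted p = 0.0403). Srf had 31 to 169 reads in the 8 cultures and Myocd, the smooth and cardiac coactivator of SRF, had at most 5 reads there and 34 reads in primed 129/MSM. Of 6 immediate targets of SRF and YAP, 1 was called with AICAR, the matrix protein gene Ccn2, at 1.84 ± 0.39 (edgeR adjusted p = 0.0271), and Egr1 and Fos rose from d8 to d16 by 2.04 ± 0.38 and 2.40 ± 0.41 (edgeR adjusted p = 0.00689 and 0.00504). Of 12 genes of the non-muscle actomyosin network none was called with AICAR by edgeR, and their summed level was 5287 to 7814 CPM in the cultures and 6107 to 6973 CPM in d16+10p cells. Acta2 spanned 0 to 880 CPM over the same libraries.

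Myog, myogenin, the factor that commits myoblasts to fuse (chr1:134289989-134292548, plus strand), was highest in AICAR d16. That library had 50 of the 66 Myog reads of all libraries, or 15.6 CPM with an exact 95% binomial interval of 11.6 to 20.6, for counting error only. AICAR+LIF d16 had 8 reads (3.01 CPM, interval up to 5.93), and every other of the 22 libraries had at most 2. At d8 both media with AICAR had 0 reads. In AICAR that allowed up to 2.84 CPM, below the interval at d16, so the d16 library was the higher beyond counting error, with 1 library a day. In AICAR+LIF it allowed up to 5.93 CPM, and no difference between the days was detectable at this depth.

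Of the 20 listed skeletal partners, 10 were highest in AICAR d16 among the 4 d16 cultures, 6 in 2iL, 2 in AICAR+LIF and 2 in basal. The 10 were Chrna1, Chrnd, Myf5, Myh3, Myh8, Myl1, Mylpf, Mymk, Myod1 and Tnnt1, and the genes with read counts here were chosen from them after their values were seen. AICAR d16 had 13 reads of Myf5 and 7 of Myod1, the factors upstream of Myog, against at most 3 and 2 in each of the other 21 libraries. It had 13 reads of Mymk, the fusion protein myomaker, 129 of Myh3, the embryonic myosin heavy chain, and 51 of Myl1, a fast myosin light chain, against 6, 34 and 16 in the next highest culture. Chrna1, the acetylcholine receptor of the muscle endplate, had 22 reads there and at most 3 in the other cultures. The perinatal myosin Myh8 was high in another library too, with 405 reads in AICAR d16 and 271 in basal d16. The actin Actc1 was at its d16 maximum in this library, at 53.1 CPM, and so were Des, Tnnt2 and Myh6. With 1 library for the condition there was no replicate of this pattern. Of 20 listed skeletal partners 10 were tested and none was called with AICAR by edgeR, while Pax3 and Pax7, which also mark dorsal neural tissue, were lower at d16 than at d8, at -1.16 ± 0.33 and -4.76 ± 0.52 (edgeR adjusted p = 0.0297 and 0.00132). Of 6 neural markers 5 were called lower at d16 as well, where 30.2% of all genes were called in either direction. From d8 to d16 Myh8, Cdh15 (the cadherin of myoblasts) and Tnnt3 (fast troponin T) rose, by 6.05 ± 0.93, 3.93 ± 0.89 and 3.65 ± 0.73 (edgeR adjusted p = 0.00367, 0.0136 and 0.00875). Of 13 tested skeletal partners 8 were called higher and 1 lower in the cultures than in reverted cells, and 6 higher and 2 lower than in primed cells. Over all genes 76.2% and 37.5% were called in these comparisons, in either direction. One of the 8 was Mymk, with 13 reads in AICAR d16 and at most 6 in any other culture, and nothing is read from its call.

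**Figure D5:**
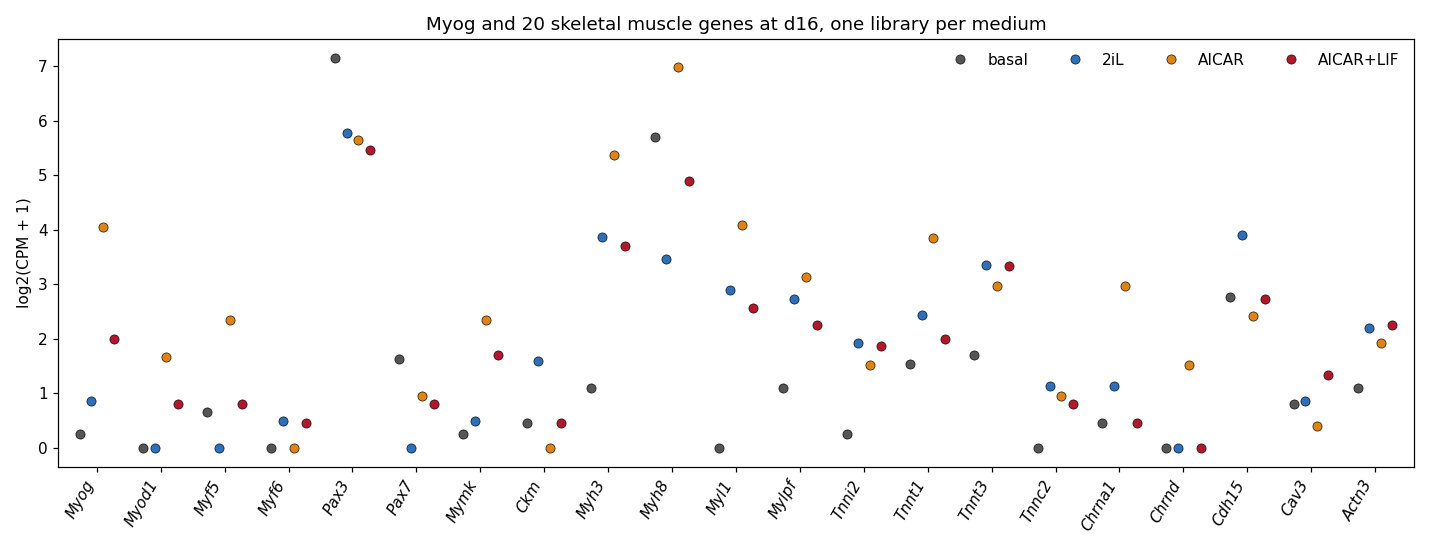
Level of Myog and 20 listed skeletal muscle genes, as log2(CPM + 1), in the 4 d16 cultures, with 1 library for each medium. AICAR d16 was highest for Myog and for 10 of the 20 partners, and another medium was highest for the rest, such as Pax3, Cdh15, Tnnt3 and Actn3.

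AICAR d16 also stood apart outside muscle: Foxc1, a forkhead factor of paraxial mesoderm, had 955 reads there against 90 to 256 in the other d16 cultures. Cdh5, the endothelial cadherin, had 502 reads there and 4 to 14 in the others, and the summed level of 6 endothelial markers was 247 CPM against 38.4 to 88.0 CPM. Foxc1 was called higher with AICAR over both days, at 2.62 ± 0.54, and so was the mesoderm factor T, at 2.77 ± 0.69 (edgeR adjusted p = 0.0253 and 0.0431). Pou5f1 and the pluripotency factor Nanog were called higher with AICAR too, at 4.17 ± 0.67 and 3.28 ± 0.81 (edgeR adjusted p = 0.0125 and 0.0419). They were the only 2 called of 6 tested pluripotency markers. Sox2 and Tfcp2l1 were fitted below 0, at -0.73 ± 0.28 and -0.48 ± 0.65, and Zfp42 and Esrrb had too few reads to be tested. None of 4 tested endothelial and 6 tested neural markers was called with AICAR by edgeR.

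Of the cardiac genes, Tnnt2, Myh6 and Myl7 were low in all libraries, unlike Actc1. Tnnt2 (chr1:135836354-135852260, plus strand) had at most 9 reads in 21 libraries and 24 reads, 7.49 CPM, in AICAR d16. Its 98 reads over all libraries were spread over 14 annotated transcripts, and the leading one, a retained-intron transcript, took 11.2% of them. Myh6 (chr14:54941921-54966927, minus strand) had 8 to 16 reads in the 4 d16+2p and d16+3p libraries, 13 in primed 129/MSM, 11 in AICAR d16 and at most 6 elsewhere. Of its read-length windows 14.8% occurred also in Myh7, the beta chain, so part of its reads could have come from either gene. Myl7, the atrial myosin light chain (chr11:5896637-5898782, minus strand), had 5 to 9 reads at d16+2p and d16+3p, 6 in naive cells and 0 in both primed libraries, and the filter on low counts kept it out of every comparison. Without that filter it was lower in the cultures than in reverted cells, at -4.32, and higher in d16+10p than in primed cells, at 4.44 (edgeR adjusted p = 6.98e-05 and 0.0484). The size of these differences is not secure on so few reads. Its mean in d16+10p, 0.939 CPM, was below the 1.10 CPM that 3 reads would allow in primed cells. In reverted cells its mean was at least 1.09-fold over the highest such level in cultures without AICAR. The leading cardiac genes gave no more: Nkx2-5 and Pln had at most 1 read in any library, Nppa at most 2 and Myl2 at most 3. Gata4 and Gata6, factors of heart and of endoderm, had 260 and 276 reads in primed 129/MSM and at most 7 and 15 in the 8 cultures. Of 13 tested cardiac partners 6 were called lower in the cultures than in primed cells, where 37.5% of all genes were called in either direction. Among them were Gata4 at -7.73 ± 1.09 and Gata6 at -5.30 ± 0.96 (edgeR adjusted p = 4.5e-05 and 2.6e-04), and the median over the 13 was -1.59. With AICAR none of 8 tested was called by edgeR, where 8.9% of all genes were. From d8 to d16 3 of 8 were called higher, where 30.2% of all genes were called in either direction. Among the 3 was Actn2, a sarcomeric actinin, at 2.77 ± 0.76 (edgeR adjusted p = 0.0266).

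Some sarcomere genes ran the other way and were high in reverted cells. Ttn, titin, had 47 to 252 reads in the 11 reverted libraries, 53 in naive cells, 2 in each primed library and 0 to 78 in the cultures, where AICAR d16 was again the highest. Mylpf, a fast skeletal light chain, had 96 to 800 reads in reverted cells against 0 to 25 in the cultures, and was called lower in the cultures at -5.30 ± 0.34 (edgeR adjusted p = 2.32e-11). Ttn was lower in the cultures at -5.46 ± 0.54 (edgeR adjusted p = 1.08e-08). In the d16+10p libraries these came without Actc1 or Myog, which had 0 reads in each. At earlier passages Actc1 had 14 and 15 reads in the d16+2p libraries, and Myog had 2 reads in 1 d16+3p library.

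The genes whose log2 CPM ran most like each member over the 22 libraries, which differ by state and depth, were given by Pearson's r as a description. Acta2 was nearest to Thbs1, thrombospondin 1, at 0.975 and to Col1a1 at 0.965, and Tagln to Thbs1 at 0.977 and Tnc, tenascin C, at 0.966. Cnn1 was nearest to Sytl2 at 0.940, Actc1 to Klhl30 at 0.891, Acta1 to Fcgr3 at 0.911 and Myog to Pnliprp1 at 0.946. Des had no close neighbour, the nearest being Calca at 0.750. Over the 8 cultures alone Acta2 and Tagln had an r of 0.994, Acta2 and Cnn1 0.914, and Acta1 and Actc1 0.893.

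The actin genes are near copies in their coding parts, and reads could have been shared. Over all windows of 79 bases, the read length, of their leading transcripts, Acta2 and Actc1 shared none with a transcript of another gene and Acta1 shared 0.146%, all with Gm47692. The counts of the actins were thus distinct at exact matches, although reads with mismatches were not examined. Within the genes, 75.7% of Acta2 reads were assigned to Acta2-201 and 24.3% to the shorter coding transcript Acta2-202, 68.1% of Tagln reads to Tagln-201, and 73.2% of Des reads to Des-201, while 26.8% of Des reads went to a pair of transcripts annotated as retaining introns.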

How the data were processed

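RNA of 22 libraries was sequenced by the study as stranded single reads of 79 bases. Per the study's methods and the submitters' processing notes, the authors aligned reads with Bowtie2 2.2.5 to mouse cDNA and non-coding RNA of Ensembl GRCm38 and deposited raw counts per gene and per transcript, with no normalization. All 22 count columns of each table were matched to samples by name. Per the study's methods reads were counted above a threshold of mapping quality. How reads that match several genes were counted is not otherwise given in the sources used here.

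The 10 genes and all gene lists were chosen with earlier results of these data known. Gene counts were fitted in R 4.3.3 with edgeR 4.0.16 (filterByExpr, TMM scaling, quasi-likelihood F test), with Benjamini-Hochberg adjustment over all genes tested and a threshold of 0.05. Comparisons within d8 and d16 used those 8 libraries with the day as a term (AICAR as the term for the days), and comparisons of states used all 22 libraries. DESeq2 1.42.0 was an alternative, as were other scaling, no filter, each library left out, and smaller fits. Log2 values for likeness had a prior count of 2. SE is that of the fitted log2 difference. Intervals of single libraries were exact 95% binomial, and both these and the 3-read limit cover counting error only. Levels per kilobase used transcript lengths weighted by reads. The genes named outside the 10 were list genes called in a comparison, list genes needed to check a label, and the genes with the highest Pearson r to a member. The single-library read counts of partner genes were chosen after their values were seen. Positions came from the GENCODE annotation of GRCm38 and promoters from RefSeq (GRCm38.p6).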

Additional observations from a re-analysis of the deposited data

Results flagged for a closer look

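Cnn1 in AICAR+LIF d16 stood far from the other d16 cultures. It had 62.5 CPM there and the next highest d16 culture had 12.8 CPM, a gap that took 0.865 of the range of the 4 libraries. At d8 the same medium had 51.4 CPM. In all, 29 sets of 4 to 10 libraries were examined in this way. Of them 1 was beyond the limit, no more than the about 1 in 20 that chance alone gives. The library also had the highest Acta2, Tagln and Actg2 of the d16 cultures.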

How the results depend on the processing

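The number of members called with AICAR, 3, was 7 with no filter, 6 by DESeq2, 5 at d8 alone, 2 with counts thinned to the smallest total, 0 at d16 alone, 0 with no term for the day, and 0 to 6 when single libraries were left out. Over all genes the 1377 calls became 3143 with no filter, 2232 by DESeq2, 2795 at d8 alone, 864 after thinning, 37 with no term for the day, 0 at d16 alone and 173 to 2618 with single libraries left out. Between d16 and d8 the 0 members became 3 with no filter and 0 to 1 with single libraries left out, and 2232 to 4073 genes were then called in place of 4673; with the medium as a block 0 members and 3755 genes were called. For the difference of the AICAR effect between days the 0 members became 2 with no filter and 0 to 1 with single libraries left out, and the 21 genes became 1146 with no filter, 332 by DESeq2 and 0 to 701. Between 2iL and basal the 2 genes became 386 with no filter, 96 by DESeq2, 6 in the 4 libraries alone and 0 to 64, with 0 members throughout. Between AICAR+LIF and AICAR the 4 libraries alone gave 3 members and 320 genes, and no filter gave 17 genes. Against primed cells the 3 members of the cultures became 1 in the 10 libraries alone (4595 genes in place of 7032), 1 without both low-total d8 libraries, and 1 to 5 with single libraries left out (5 without 2iL d8, 1 and 4115 genes without primed Oct4GIP). The 4 members of d16+10p became 2 to 4 with single libraries left out (4462 genes without primed Oct4GIP in place of 6863). The cause of these changes was not tested. Against reverted cells 6 to 8 members were called throughout. Over all alternatives no called member changed direction: 357 fits of called members kept the call and 49 lost it. Thinning and leaving out both low-total libraries were chosen after seeing the data. On library totals without scaling, 60 of 60 group means of the members moved by less than 1 SD. With a single library for each medium and day, and under 1000000 reads in AICAR d8 and AICAR+LIF d8, differences in genes of few reads were not detectable at this depth.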
